A study of Mus musculus with 9 samples.

Results

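Genes that mark T cells and natural killer cells were followed in whole mouse liver. They were taken from the deposited count table by symbol: 10 of its 54532 genes, namely Cd3e, Cd3g, Cd4, Cd8a, Klrb1c, Gzma, Gzmb, Gzmk, Nkg7 and Ccl5. The livers came from 9 male C57BL/6 mice in 3 groups of 3. The old Fabp4 shRNA mice were 20 months old and had received, at 14 months, adeno-associated virus 9 with a short hairpin RNA against Fabp4, a fatty acid carrier of fat cells and macrophages. The old control mice had the same age and the same injections with a negative control hairpin (shRNA-Neg). Both old groups were thus injected, through the tail vein and into the subcutaneous white fat, while no injection is described for the young mice, which were 8 weeks old. Age and virus injection therefore cannot be told apart in any comparison with young mice, and the sources used here do not name the promoter that drives the hairpins. The labels name liver as the tissue, although their text on RNA extraction speaks of NRVMs, an abbreviation used for heart muscle cells of newborn rats.

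T cells recognise peptides through the T cell receptor, which signals through the CD3 chains, and the coreceptors CD4 and CD8 split them broadly into helper and cytotoxic cells. Natural killer cells carry no rearranged receptor and are read in C57BL/6 mice by NK1.1, the product of Klrb1c. Cytotoxic T cells and natural killer cells kill by releasing perforin and granzymes from granules, and the liver holds a standing population of them in its sinusoids.

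The libraries held between 14243344 and 17125440 counts, and 3 counts, taken as the floor of detection, equal 0.175 to 0.211 CPM (counts scaled to library size, here to the plain total). All CPM given below are further scaled with edgeR's TMM factors, which even out differences in library composition, and a group mean carries the SD of its 3 libraries. Hepatocyte markers (Alb, Apoa1, Ttr, Cps1 and Ass1) were read in every library and summed to 65600 to 81900 CPM in old Fabp4 shRNA livers, 81500 to 125000 CPM in old control livers and 98900 to 162000 CPM in young livers. Fabp4, the hairpin's target, ranged from 3.81 to 11.2 CPM in the livers labelled old Fabp4 shRNA and from 7.21 to 13.6 CPM in old control livers, so these groups overlapped. One young count column has a number that matches no label and is called the unnumbered young library. It stood apart, with 64.8 CPM of Fabp4, against 2.67 and 3.40 CPM in the other young livers, and with 3090 CPM summed over 6 skeletal muscle markers, against at most 73.4 CPM in any other library. Its column in the authors' FPKM table (fragments scaled to gene length and library size) holds other values than its count column, so several results are also given without it.

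All 10 genes were read at low levels. Per gene length, over the 8 libraries whose FPKM and count columns match, Ccl5 was the highest with a mean of 4.57 FPKM and a range of 2.78 to 9.58 FPKM. Nkg7 followed with a mean of 1.86 FPKM (1.32 to 2.51 FPKM). Their ranges did not overlap, whereas those of each neighbouring pair further down the order did. Gzmb averaged 0.801 FPKM, Gzma 0.779 FPKM, Cd8a 0.441 FPKM and Cd3g 0.433 FPKM. Cd4 at 0.210 FPKM, Klrb1c at 0.192 FPKM, Gzmk at 0.155 FPKM and Cd3e at 0.0931 FPKM were the lowest. For scale, the leukocyte gene Ptprc (CD45) averaged 0.745 FPKM, the Kupffer cell receptor Clec4f 31.6 FPKM and albumin (Alb) 31180 FPKM. In bulk tissue a lower level can mean fewer cells of a type or less RNA per cell, and these cannot be told apart.

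Other genes that define these cells were checked in the same libraries. Trac, the constant part of the T cell receptor alpha chain, had 23 to 34 counts in old Fabp4 shRNA livers, 5 to 52 counts in old control livers and 8 to 18 counts in young livers. Scaled, its groups overlapped, since the lowest old Fabp4 shRNA liver stood at 1.20 CPM and the highest young liver at 1.33 CPM. Cd3d had between 5 and 22 counts in every library. Ncr1, which encodes the natural killer receptor NKp46, was scarcer, with 0 to 5 counts in old Fabp4 shRNA livers, 1 or 2 counts in old control livers and 1 to 13 counts in young livers. Both T cell genes were thus above 0 in every liver, and the natural killer gene was at or below 5 counts in all livers but young 1.

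**Figure D1:**
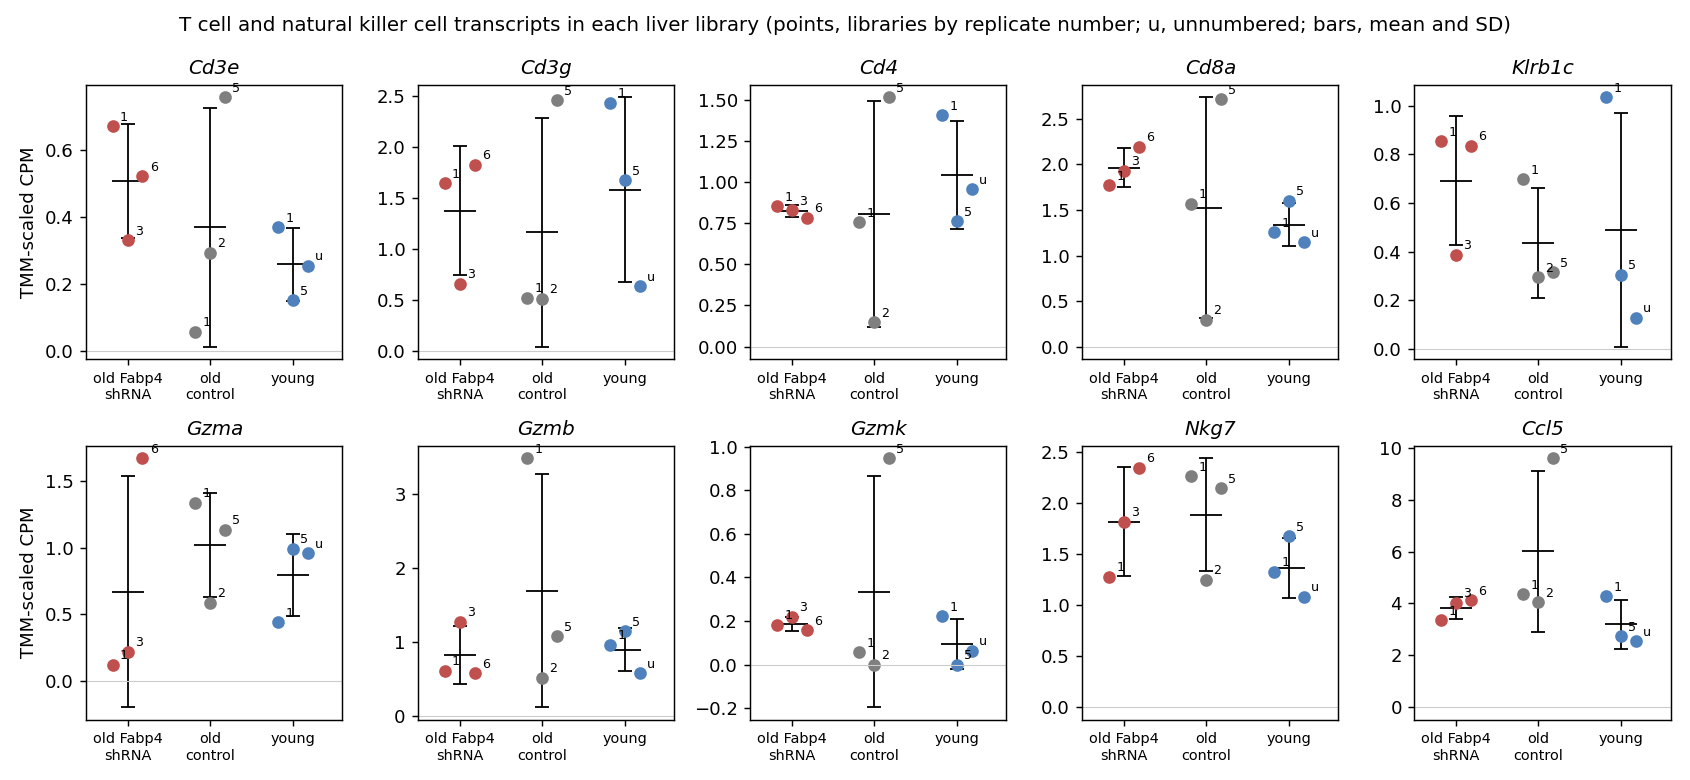
TMM-scaled CPM (vertical axes, each from its own scale) of the 10 genes in each of the 9 libraries, grouped as old Fabp4 shRNA, old control and young; points are libraries and bars give the mean and SD of 3. Old control 5 is the highest point for 6 genes and old control 2 the lowest for 5, and the old Fabp4 shRNA points of Cd8a all lie above the young ones.

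None of the 10 genes passed the test in any comparison. The test was edgeR's quasi-likelihood fit with Benjamini-Hochberg adjustment over 14025 genes, and a gene was called at an adjusted p under 0.05. Cd3e and Gzmk were too low to be tested, which left 8 genes, and these are the genes that passed a filter on low counts rather than the whole set. Of old Fabp4 shRNA against old control, 0 of 8 were called, where 0% of all genes were. Of old control against young, 0 of 8 were called beside 0.0357% of all genes, of old Fabp4 shRNA against young 0 of 8 beside 0.057%, and of both old groups against young 0 of 8 beside 0.0642%. With backgrounds this low, a count of 0 says nothing particular about these genes. At an unadjusted p under 0.05 the counts were 0 of 8 (6.75% of all genes), 1 of 8 (10.5%), 0 of 8 (8.93%) and 0 of 8 (10.8%) in that order of comparisons, and DESeq2 and limma-voom called 0 of the 8 as well. Every pair of these comparisons shares libraries, so their values are only set side by side.

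Log2 fold changes were spread to both sides of 0. In old Fabp4 shRNA against old control, 4 were positive and 4 negative, from -1.05 to 0.64, with a median of -0.02 beside -0.01 for all tested genes. In old control against young, 5 were positive and 3 negative, from -0.43 to 0.94, with a median of 0.28 beside 0.01. In old Fabp4 shRNA against young, 4 were positive and 4 negative, from -0.34 to 0.56, with a median of 0.07 beside 0.02. In both old groups against young, 6 were positive and 2 negative, with a median of 0.29 beside 0.02. These medians moved with single libraries. Leaving out each library in turn, they ran from -0.27 to 0.25 in old Fabp4 shRNA against old control and from 0.12 (without old control 1) to 0.62 (without old control 2) in old control against young. The ranges were 0.04 (without the unnumbered young library) to 0.40 (without young 1) in old Fabp4 shRNA against young, and -0.06 (without old control 1) to 0.55 (without old control 2) in both old groups against young. Of the exact two-sided permutation tests over libraries, which cannot go below p = 0.1 with 3 against 3, a single one reached that value: Cd8a in old Fabp4 shRNA against young.

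**Figure D2:**
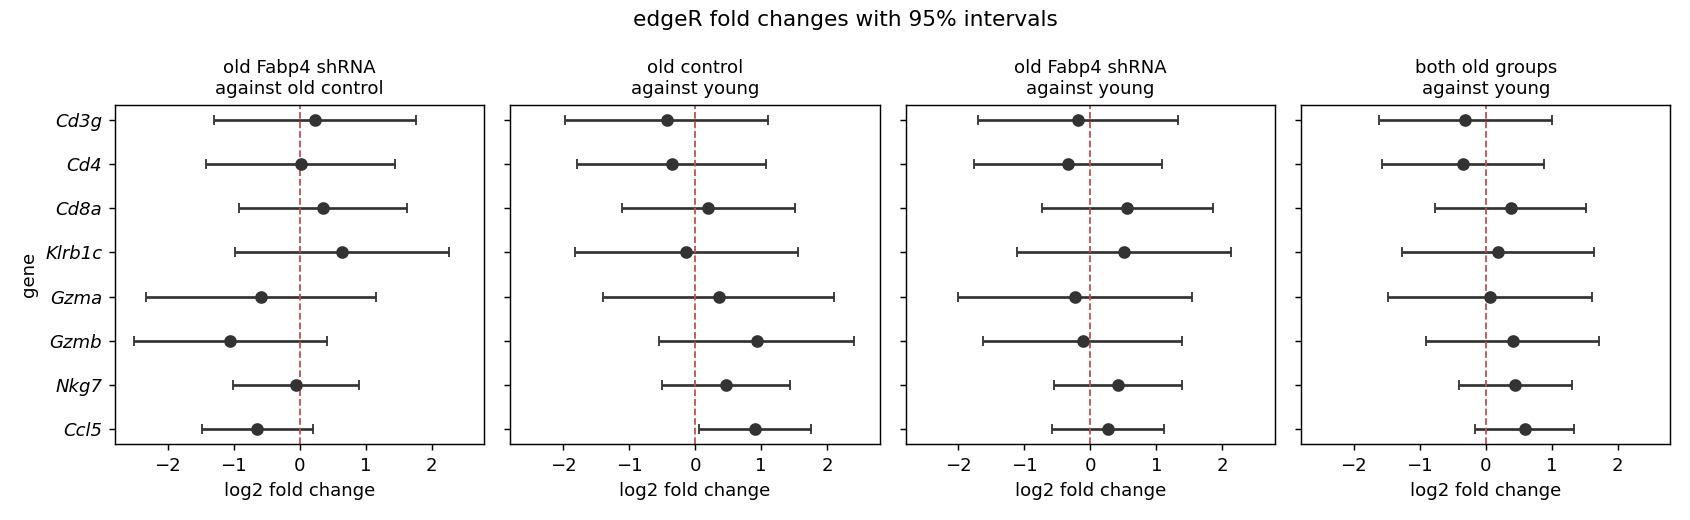
Log2 fold changes of the 8 tested genes (horizontal axis) with 95% intervals from edgeR, in each of the 4 comparisons, with the old groups set against each other and against young. All intervals cross 0 except that of Ccl5 in old control against young, which runs from 0.06 to 1.76.

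The CD3 chains, which carry the signal of the T cell receptor into the cell, varied more within groups than between them. Cd3g (chr9:44969572-44980431, minus strand, GRCm38) had 27, 12 and 35 counts in old Fabp4 shRNA livers, 9, 7 and 39 counts in old control livers and 33, 22 and 10 counts in young livers. High and low livers stood in every group, and the ranges of all 3 overlapped. Its means were 1.38 ± 0.628 CPM, 1.17 ± 1.12 CPM and 1.59 ± 0.904 CPM in old Fabp4 shRNA, old control and young livers (SD, n = 3 each). The log2 fold change was 0.24 ± 0.70 (SE) for old Fabp4 shRNA against old control and -0.43 ± 0.71 for old control against young. Without old control 5, these became 1.40 and -1.59, so that their size rested on that library. Cd3e (chr9:44998740-45009627, minus strand), a neighbour of Cd3g on the chromosome, was close to the floor, with 11, 6 and 10 counts in old Fabp4 shRNA livers, 1, 4 and 12 counts in old control livers and 5, 2 and 4 counts in young livers. The summed counts were 27 in old Fabp4 shRNA livers, 17 in old control livers and 11 in young livers. Scaled, the groups overlapped, since the lowest old Fabp4 shRNA liver stood at 0.331 CPM and the highest young liver at 0.370 CPM. An annotated antisense gene, Gm48719, shares 135 exonic bases with Cd3e and had 0 counts, while the sources used here do not say whether strand was used in counting.

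Both coreceptors had their widest spread in old control livers. Cd8a (chr6:71373427-71379173, plus strand), which marks cytotoxic T cells and is also carried by some dendritic cells, had 29, 35 and 42 counts in old Fabp4 shRNA livers, 27, 4 and 43 counts in old control livers and 17, 21 and 18 counts in young livers. Scaled, it stood at 1.77, 1.93 and 2.19 CPM in old Fabp4 shRNA livers, 1.57, 0.294 and 2.71 CPM in old control livers and 1.26, 1.60 and 1.15 CPM in young livers. Every old Fabp4 shRNA liver was thus above every young one, while the old control livers spanned both. This was the single case among the 10 genes and 4 comparisons in which the groups did not overlap. In that comparison the groups did not overlap for 1 of 10 members, close to the background of 13.5% of all tested genes. The other comparisons gave 0 of 10 members beside 11.7% of all genes for old Fabp4 shRNA against old control, 17.2% for old control against young and 5.23% for both old groups against young. The Cd8a log2 fold change of 0.56 ± 0.60 for old Fabp4 shRNA against young had an edgeR adjusted p of 0.800. Summed hepatocyte and red blood cell markers were lower in every old Fabp4 shRNA liver than in every young one, and their part in the Cd8a value was not tested. Without the unnumbered young library that value was 0.46. Against old control the old Fabp4 shRNA livers gave 0.35 ± 0.59, which turned to -0.12 without old control 2. Old control against young gave 0.20 ± 0.60, which turned to -0.49 without old control 5.

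Cd4 (chr6:124864692-124888221, minus strand), the helper T cell coreceptor, had 14, 15 and 15 counts in old Fabp4 shRNA livers, 13, 2 and 24 counts in old control livers and 19, 10 and 15 counts in young livers. Its means of 0.822 ± 0.0359 CPM, 0.806 ± 0.685 CPM and 1.04 ± 0.329 CPM in old Fabp4 shRNA, old control and young livers (SD, n = 3 each) differed by less than the spread in old control livers. The log2 fold change of old Fabp4 shRNA against old control was 0.01 ± 0.66, and without old control 2 it was -0.46, and 0.82 without old control 5. That of old control against young was -0.35 ± 0.66.

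The balance between the coreceptors, Cd8a counts as a share of Cd8a plus Cd4 counts, needs no scaling of libraries and was looked at after the values were seen. It was 67.4%, 70.0% and 73.7% in old Fabp4 shRNA livers, 67.5%, 66.7% and 64.2% in old control livers and 47.2%, 67.7% and 54.5% in young livers. Young liver 5 lay inside the range of the old livers, and the other young livers lay below all 6 of them. The 66.7% of old control 2 rests on 4 of 6 counts, with an exact 95% interval of 22.3% to 95.7%. Summed counts gave 70.7% (62.7% to 77.8%) in old Fabp4 shRNA livers, 65.5% (56.0% to 74.2%) in old control livers and 56.0% (45.7% to 65.9%) in young livers. These exact Clopper-Pearson intervals cover counting error only, and overlap between each pair of groups. The share was 28.6% (11.3% to 52.2%) among reads rebuilt from the authors' FPKM column for the unnumbered young library, which held 6 Cd8a and 15 Cd4 reads.

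**Figure D3:**
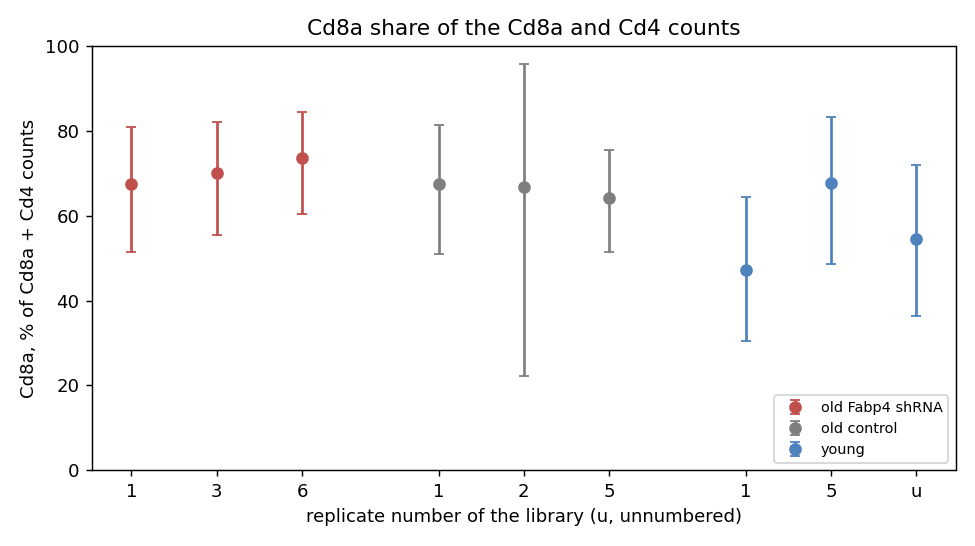
Cd8a counts as a percentage of Cd8a plus Cd4 counts (vertical axis) in each library of the old Fabp4 shRNA, old control and young groups, with exact 95% binomial intervals. The 6 old livers sit between 64.2% and 73.7%, and young 1 and the unnumbered young library sit below them, at 47.2% and 54.5%.

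Klrb1c (chr6:128778485-128789215, minus strand), the gene of the natural killer receptor NK1.1, was read near the floor in several livers. It had 14, 7 and 16 counts in old Fabp4 shRNA livers, 12, 4 and 5 counts in old control livers and 14, 4 and 2 counts in young livers, and the groups overlapped. The highest liver of all was young 1, at 1.03 CPM, and the lowest the unnumbered young library, at 0.128 CPM. Its log2 fold change was 0.64 ± 0.75 for old Fabp4 shRNA against old control, -0.13 ± 0.78 for old control against young and 0.51 ± 0.75 for old Fabp4 shRNA against young. The value for old control against young changed sign without young 1 (1.02), without old control 2 (0.07) and without old control 5 (0.05), and was -0.64 without the unnumbered young library. That of old Fabp4 shRNA against young ran from 0.04 without the unnumbered young library to 1.67 without young 1. Gm44511, on the same strand, shares 413 exonic bases with Klrb1c and had 0 counts.

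The granzymes are proteases that enter a target cell and start its death, and Nkg7 is a membrane protein of the granules that hold them. The promoter sequences of Gzma, Gzmb and Nkg7, the 3 granule genes with the most counts, are shown because they carry TGTGGT, the core bound by RUNX proteins, which take part in the cytotoxic programme. Each stretch runs from 250 bases before the annotated start to 50 after it, 5′ to 3′ on the gene's own strand, from RefSeq on GRCm38.p6, with TGTGGT or its reverse complement ACCACA in capitals. They lie at chr13:113100932-113101231 (Gzma, minus strand), chr14:56262285-56262584 (Gzmb, minus strand) and chr7:43436888-43437187 (Nkg7, plus strand).
Gzma: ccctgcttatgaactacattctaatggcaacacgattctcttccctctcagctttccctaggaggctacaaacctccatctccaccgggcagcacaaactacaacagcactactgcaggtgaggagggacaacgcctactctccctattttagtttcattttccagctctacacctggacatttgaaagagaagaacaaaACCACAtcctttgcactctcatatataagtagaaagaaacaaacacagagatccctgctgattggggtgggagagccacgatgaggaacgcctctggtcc
Gzmb: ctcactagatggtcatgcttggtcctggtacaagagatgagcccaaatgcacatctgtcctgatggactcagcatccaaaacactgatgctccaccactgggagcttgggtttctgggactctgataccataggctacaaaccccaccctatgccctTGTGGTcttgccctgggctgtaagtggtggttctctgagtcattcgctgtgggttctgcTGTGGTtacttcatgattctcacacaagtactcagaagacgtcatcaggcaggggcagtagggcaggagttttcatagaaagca
Nkg7: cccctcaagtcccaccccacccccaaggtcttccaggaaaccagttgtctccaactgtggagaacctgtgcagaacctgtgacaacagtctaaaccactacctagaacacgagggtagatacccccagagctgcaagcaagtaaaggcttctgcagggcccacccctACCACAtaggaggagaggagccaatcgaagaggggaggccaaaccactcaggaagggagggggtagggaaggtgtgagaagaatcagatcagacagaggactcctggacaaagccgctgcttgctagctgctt
Counted from the RefSeq start, the match begins at -50 in Gzma, at -93 and -34 in Gzmb, and at -83 in Nkg7. The gene positions given below come from GENCODE, and their starts differ from RefSeq for Gzmb and Nkg7. The Gzmb stretch lies wholly before the GENCODE start, and the GENCODE start of Nkg7 lies before its RefSeq start. Distances from the GENCODE starts of these genes therefore differ from those given. TGTGGT was searched on both strands and found in 4 of the 8 members with a promoter in the table (Gzma, Gzmb, Klrb1c and Nkg7) and in 16.8% of all 32851 promoters of the same length. GGTGTG, a T-box core, was found in 2 of 8 (Gzmk and Nkg7) and in 19.0% of all, and AGGAAG, an ETS motif, in 3 of 8 (Cd3e, Klrb1c and Nkg7) and in 35.4% of all. Matches of different motifs can share bases at their ends. The motifs were chosen after the values were seen, and a match is a description of sequence.

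Gzmb (chr14:56258838-56262260, minus strand), granzyme B, had 10, 23 and 11 counts in old Fabp4 shRNA livers, 60, 7 and 17 counts in old control livers and 13, 15 and 9 counts in young livers. Old control 1 stood alone, at 3.49 CPM, against 0.515 to 1.27 CPM in the other 8 libraries. The group means were 0.818 ± 0.391 CPM, 1.69 ± 1.58 CPM and 0.894 ± 0.291 CPM in old Fabp4 shRNA, old control and young livers (SD, n = 3 each). The log2 fold change was -1.05 ± 0.68 for old Fabp4 shRNA against old control (edgeR adjusted p = 0.807) and 0.94 ± 0.68 for old control against young. Without old control 1 both changed sign, to 0.04 and -0.15. The same library was the highest of the 9 for summed pan-leukocyte markers (107 CPM, others 39.9 to 62.2 CPM), Kupffer cell markers (493 CPM, others 74.5 to 240 CPM) and monocyte markers (153 CPM, others 26.7 to 71.4 CPM). Their part in the Gzmb value was not tested.

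Gzma (chr13:113093825-113100981, minus strand), granzyme A, turned on a single library in another group. It had 2, 4 and 32 counts in old Fabp4 shRNA livers, 23, 8 and 18 counts in old control livers and 6, 13 and 15 counts in young livers. Old Fabp4 shRNA 6 was the highest of all 9 libraries at 1.67 CPM, and the other 2 of its group were the lowest at 0.122 and 0.221 CPM. The log2 fold change of old Fabp4 shRNA against old control was -0.59 ± 0.80, and -2.51 without that library. Gzmk (chr13:113171608-113225908, minus strand), granzyme K, known in mice as a product of a T cell population that builds up with age, had 3, 4 and 3 counts in old Fabp4 shRNA livers, 1, 0 and 15 counts in old control livers and 3, 0 and 1 counts in young livers. Old control 5 thus held 15 of the 16 old control counts. Summed and scaled to plain total counts, 10, 16 and 4 counts gave a ratio of 4.02 for old control over young, with an exact 95% interval of 1.30 to 16.5 for counting error. The ratio of old Fabp4 shRNA over young was 2.41 (0.696 to 10.5). An edgeR fit without the filter on low counts gave log2 fold changes of 1.73 ± 1.29 (edgeR adjusted p = 0.7645) for the first. For the second it gave 0.92 ± 1.31 (edgeR adjusted p = 0.8534). Esm1 lies within the Gzmk locus on the other strand and shares 0 exonic bases with it. Esm1 had 65 counts in old control 5 and 44 in the unnumbered young library, where Gzmk had 15 and 1.

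Nkg7 (chr7:43437073-43438249, plus strand) had the narrowest relative range of the granule genes, from 1.09 to 2.35 CPM. It had 21, 33 and 45 counts in old Fabp4 shRNA livers, 39, 17 and 34 counts in old control livers and 18, 22 and 17 counts in young livers. Group means were 1.82 ± 0.534 CPM, 1.89 ± 0.555 CPM and 1.36 ± 0.298 CPM in old Fabp4 shRNA, old control and young livers (SD, n = 3 each). Both old means lay above the young one by less than 1 SD of either old group. Its log2 fold change was -0.06 ± 0.44 for old Fabp4 shRNA against old control, 0.47 ± 0.45 for old control against young and 0.45 ± 0.40 for both old groups against young, and the last stayed between 0.29 and 0.62 whichever library was left out.

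Ccl5 (chr11:83525778-83530518, minus strand), the chemokine RANTES that memory T cells and natural killer cells release to draw in leukocytes, was the gene closest to a call. It had 55, 73 and 79 counts in old Fabp4 shRNA livers, 75, 55 and 152 counts in old control livers and 58, 36 and 40 counts in young livers. Scaled, it stood at 3.36, 4.03 and 4.13 CPM in old Fabp4 shRNA livers, 4.36, 4.05 and 9.60 CPM in old control livers and 4.29, 2.75 and 2.55 CPM in young livers. Old control 5 stood alone, and the remaining old livers and young 1 lay together between 3.36 and 4.36 CPM. The log2 fold change of old control against young was 0.91 ± 0.39, with an unadjusted p of 0.0383 and an edgeR adjusted p of 0.449. Without old control 5 it was 0.40 with an unadjusted p of 0.327, and without the unnumbered young library 0.74. Between the old groups it was -0.64 ± 0.39 (edgeR adjusted p = 0.789), and -0.13 without old control 5. The old Fabp4 shRNA livers gave 0.27 ± 0.39 against young, and 0.13 without the unnumbered young library. Over the 6 old livers against young the value was 0.59 ± 0.35, where the exact permutation p was 0.119, and 0.33 without old control 5.

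Read by library instead of by gene, most of the spread lay among the old control livers. Old control 5 was the highest of the 9 libraries for 6 genes (Cd3e, Cd3g, Cd4, Cd8a, Gzmk and Ccl5), and old control 2 the lowest for 5 (Cd3g, Cd4, Cd8a, Gzmb and, tied at 0 with young 5, Gzmk). The 10 genes summed to 11.4, 11.7 and 15.0 CPM in old Fabp4 shRNA livers, 15.1, 7.95 and 22.7 CPM in old control livers and 13.8, 11.1 and 8.36 CPM in young livers. The old control range thus held every library of both other groups. Ccl5 alone made up between 24.8% and 50.9% of these sums. Within a group, the variance of scaled counts over their mean is about 1 where counting error is the sole source of spread. Its median over the 10 genes was 1.26 in old Fabp4 shRNA livers, 11.3 in old control livers and 1.76 in young livers, and it was above 2 for 4, 9 and 4 genes in that order. The highest values were those of Ccl5 (25.7) and Gzmb (23.4) in old control livers, while Gzma reached 17.8 in old Fabp4 shRNA livers. The difference in spread between groups was not tested.

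**Figure D4:**
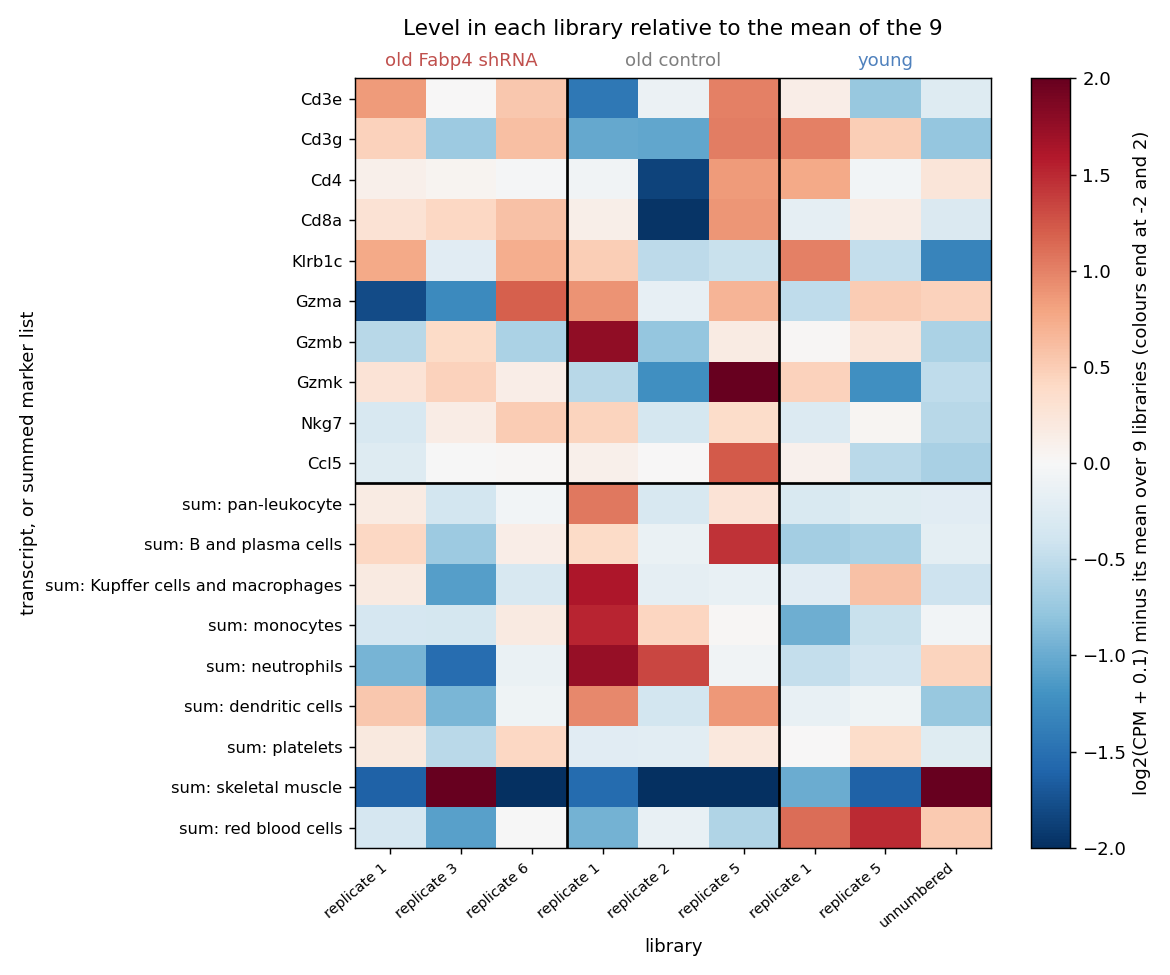
Log2 of each gene's TMM-scaled CPM (plus 0.1) minus its mean over the 9 libraries, as colours ending at -2 and 2, with the 10 genes and summed marker lists of other cell types in rows and the libraries of old Fabp4 shRNA, old control and young in columns. Old control 5 is above the mean for most genes and old control 2 below it, whereas Gzmb is highest in old control 1 and Gzma in old Fabp4 shRNA 6.

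Markers of other leukocytes moved with part of this spread. Summed B and plasma cell markers (Cd79a, Cd79b, Ms4a1, Jchain and Mzb1) were 61.0 CPM in old control 5, where T cell genes were highest, against 13.4 to 29.7 CPM in the other 8 libraries. As a sum they were 20.3 CPM or more in every old control liver and 19.5 CPM or less in every young one, where 17.2% of all tested genes taken singly did not overlap either. Read singly, Cd79a overlapped, at 1.03 to 3.85 CPM in old control livers and 0.840 to 2.96 CPM in young livers. So did Ms4a1, at 0.442 to 1.77 CPM and 0.763 to 1.34 CPM in that order. The other genes of this sum are not given singly. Summed pan-leukocyte markers ranged from 39.9 to 57.5 CPM in old Fabp4 shRNA livers, 41.1 to 107 CPM in old control livers and 41.7 to 43.9 CPM in young livers. Ptprc, a gene of this list, stood at 10.59 to 14.23 CPM, 11.41 to 31.62 CPM and 8.206 to 10.15 CPM in that order. Read singly it was thus higher in every old liver than in every young one, as 5.23% of all tested genes did not overlap there. The other genes of the list are not given singly. All 6 of these pan-leukocyte genes and all 5 B and plasma cell genes had counts in every library. Of the lymph node stroma markers, Ccl21a, Ccl19 and Madcam1 were at 0 counts in all libraries, and of the mast cell markers Mcpt4 and Tpsb2 were. Platelet markers, which bear on Ccl5 because platelets carry it, ranged from 5.07 to 9.87 CPM. Red blood cell markers differed by group, at 170 to 359 CPM in old Fabp4 shRNA livers, 188 to 328 CPM in old control livers and 520 to 1020 CPM in young livers. Neutrophil markers reached 52.7 CPM in old control 1 and 39.7 CPM in old control 2, against at most 21.3 CPM elsewhere. The part of these other cell types in the results was not tested.

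Further genes of these cells were read from 5 lists: T cell receptor complex and signalling, T cell activation, natural killer and innate lymphoid receptors, cytotoxic granule, and lymphocyte chemokines and receptors. Of their 120 genes, 69 were tested and edgeR called 0 in every comparison. At an unadjusted p under 0.05, 7 were lower and 0 higher in old Fabp4 shRNA against old control, where 3.48% of all genes were lower and 3.27% higher. In old control against young 9 were higher and 0 lower, where 6.42% of all genes were higher and 4.07% lower. Log2 fold changes of old control against young were positive for 57 of the 69, with a median of 0.52, where 51.1% of all tested genes were positive. By list, the positive genes were 14 of 17 for the T cell receptor complex, 9 of 10 for activation, 10 of 11 for natural killer receptors, 9 of 12 for the granule and 15 of 19 for chemokines. Without old control 5 the positive genes were 52 of 73, and without the unnumbered young library 59 of 75. Set against old control, 22 of 69 were positive in old Fabp4 shRNA livers, with a median of -0.25, beside 48.6% of all tested genes. Without old control 5 this became 33 of 73, with a median of -0.09 beside 50.4% of all genes, and without old Fabp4 shRNA 1 the median was -0.44. With all libraries kept, the positive genes between the old groups were 9 of 17 for the receptor complex and 1 of 10 for activation. They were 3 of 11 for natural killer receptors, 5 of 12 for the granule and 4 of 19 for chemokines. Against young, 44 of 69 were positive in old Fabp4 shRNA livers, with a median of 0.14, beside 52.2% of all tested genes. That median ran from 0.08 to 0.27 over the fits that left out a library. Monocyte markers did not overlap between old control livers (53.8 to 153 CPM) and young livers (26.7 to 50.8 CPM), nor did neutrophil markers between old Fabp4 shRNA livers (5.35 to 14.2 CPM) and old control livers (14.8 to 52.7 CPM). Of all tested genes taken singly, 17.2% did not overlap between old control and young, and 11.7% between the old groups. Ccr2 stands both among the monocyte markers and in the chemokine list. Several genes of the lists are carried by such myeloid cells too, and the part of these cells in the counts was not tested. Since the first 2 comparisons share the old control libraries, with opposite sign, these counts are not separate observations.

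Among these genes, values for the ones with the lowest p follow. Cd44, an adhesion receptor of activated and memory T cells that many other leukocytes carry, averaged 7.14 ± 0.531 CPM in old Fabp4 shRNA livers, 14.4 ± 6.27 CPM in old control livers and 5.83 ± 1.24 CPM in young livers (SD, n = 3 each). Its log2 fold change was 1.31 ± 0.32 for old control against young (edgeR adjusted p = 0.204), and -1.02 ± 0.31 for old Fabp4 shRNA against old control (edgeR adjusted p = 0.728). The value for old control against young was 1.33 without the unnumbered young library. DESeq2, and edgeR without the filter on low counts, called it in old control against young. Ccl3, a chemokine of macrophages and activated lymphocytes, had 17 counts summed over old Fabp4 shRNA livers, 48 over old control livers and 0 in each young library. Scaled to plain total counts, with a floor of 3 counts over the young group, it was at least 5.47-fold higher in old Fabp4 shRNA livers. In old control livers it was at least 16.1-fold higher on that scale. With the TMM factors both bounds would be lower. The edgeR adjusted p, from the fit with TMM factors, was 0.333 and 0.139 in that order. The chemokine list's median of 0.85 for old control against young was the same with Ccl3 set at its bound.

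Other named genes of the lists include receptors, kinases and granule proteins. Prf1, which encodes perforin, averaged 0.826 ± 0.513 CPM in old Fabp4 shRNA livers, 0.851 ± 0.547 CPM in old control livers and 0.270 ± 0.230 CPM in young livers (SD, n = 3 each), with a log2 fold change of 1.64 ± 0.81 for old control against young (edgeR adjusted p = 0.500). Il18r1, a receptor chain for interleukin 18 that natural killer and T cells carry, averaged 0.95 ± 0.470 CPM in old Fabp4 shRNA livers, 0.965 ± 0.333 CPM in old control livers and 0.184 ± 0.0952 CPM in young livers. Its log2 fold change was 2.31 ± 0.69 for old control against young (edgeR adjusted p = 0.307). Young livers stood at 0.0763 to 0.255 CPM for Il18r1 and 0.0639 to 0.518 CPM for Prf1. These values lie around the floor of detection, so the size of both fold changes is uncertain. Cxcl16, a chemokine that draws T and NKT cells into liver sinusoids, had log2 fold changes of -0.46 ± 0.35 for old Fabp4 shRNA against old control and 1.25 ± 0.36 for old control against young (edgeR adjusted p = 0.296 for the second). Without the unnumbered young library, old control against young gave 1.12 for Prf1, 2.59 for Il18r1 and 1.20 for Cxcl16. The granule proteoglycan Srgn had 1.06 ± 0.37 and the serpin Serpinb6b 1.02 ± 0.43 for old control against young. Havcr2 (TIM-3) had 1.23 ± 0.86, with young livers from 0 to 0.702 CPM. Without the unnumbered young library Havcr2 gave 3.06, but the young libraries left lay below the floor of detection, so its size is not a measured fold. Slamf6 had 1.19 ± 0.74, while Lck, the kinase next to the coreceptors, had 0.82 ± 0.52. Fyn, a related kinase, had 0.65 ± 0.36, and Itga1 0.36 ± 0.22. In the same comparison Tcf7, a transcription factor of naive and memory T cells, had -0.43 ± 0.32, and Lamp1, a granule and lysosome membrane protein of all cells, -0.41 ± 0.31. Between old Fabp4 shRNA and old control, Ccr1 had -1.67 ± 0.58, Itgam -1.50 ± 0.66 and Klrd1 (CD94, a natural killer receptor chain) -1.25 ± 0.61. Cd7 had -1.07 ± 0.48, Cd69 -1.05 ± 0.75, Unc13d -0.66 ± 0.56, Trbc1 -0.61 ± 0.50 and Tcf7 0.65 ± 0.32. None of these passed the test, and Itgam and Ccr1 are also carried by monocytes and macrophages.

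The tested genes whose profiles over the 9 libraries were closest to those of Cd3e and Nkg7 were not other members. By the root mean square difference of centred log2 CPM, those closest to Cd3e, out of 14025, were 9330162G02Rik (0.308), Mpp7 (0.320), Zfp940 (0.379), Gm6658 (0.381) and Zbtb10 (0.392). Among the other members the closest to Cd3e was Ccl5, at 0.634 and rank 1061. For Nkg7 they were Zswim3 (0.162), Rfx2 (0.168), Ttbk1 (0.178), Gm17201 (0.18) and 2310043M15Rik (0.196), and the closest member was again Ccl5, at 0.431 and rank 3039. The profile of Nkg7 itself had a root mean square of 0.364 around its mean, so a gene with no variation at all would have stood closer to it than Ccl5 did.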

How the data were processed

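RNA was sequenced from the livers of 9 mice. Reads were aligned with HISAT2 to GRCm38.p6, per the submitters' processing notes, while the sources used here name neither the counting program nor its strand setting. The deposited count table holds the authors' whole read counts per gene, and the authors' FPKM table holds those counts scaled to gene length and library size. The 2 tables were compared on 10483 genes with at least 20 counts: within a tolerance of 0.001 (relative), counts and FPKM kept 1 ratio per gene in 100% of genes for 8 columns and in 0.229% for the unnumbered young column. Whole reads were rebuilt from that FPKM column (100% of 14153 values whole within 0.05 reads) and replaced its counts in an alternative fit. Every column was placed in a group, the unnumbered young column by its letter alone, and no column was matched to young animal 4 of the labels.

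Counts were fitted with edgeR 4.0.16 in R 4.3.3 (filterByExpr, TMM factors 0.825 to 1.15, robust quasi-likelihood, 1 mean per group over all 9 libraries, 6 residual degrees of freedom), and p-values were two-sided and Benjamini-Hochberg adjusted at 0.05. Single genes were also tested by exact permutation with scipy 1.17.1. Alternatives were other scalings and filters, DESeq2 1.42.0, limma 3.58.1 on counts and on log2 FPKM (1 or 0.1 added), fits to the libraries compared, a block for animal number, and each library left out in turn. Positions came from GENCODE mouse release 21. The members, lists and rules were chosen with earlier results of these data known. Named genes are all members, the 3 tested genes of each list with the smallest p in old Fabp4 shRNA against old control and in old control against young, and the 5 genes nearest in profile to Cd3e and to Nkg7. A gene that this rule names and a B cell marker are not reported here, and the marker was left out of its summed list. The labels do not say that equal animal numbers mark a pair. The p-values measure the spread between these mice. Floors and intervals cover counting error only.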

Additional observations from a re-analysis of the deposited data

How the results depend on the processing

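No member was called under any alternative, and the lowest adjusted p over all of them was 0.28. Of 655 alternative fold changes of the 8 tested members, 601 kept their direction. The number of related genes called in old control against young was 2 by DESeq2 and without a filter (Cd44 and Ccl3) and 1 by limma on FPKM with either pseudocount (Ccl3), and in both old groups against young it was 1 in each of these (Ccl3).

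Without scaling beyond total counts the median of all genes shifted to 0.13 for old Fabp4 shRNA against old control, 0.16 for old control against young, 0.31 for old Fabp4 shRNA against young and 0.23 for both old groups against young. Log2 fold changes that turned there were Nkg7 at 0.055 in the first, Klrb1c at 0.10 in the second, and Cd3g at 0.14, Gzma at 0.042 and Gzmb at 0.17 in the third. Upper quartile scaling turned Cd4 to -0.03 in old Fabp4 shRNA against old control. Limma-voom turned Cd8a to -0.18 and Klrb1c to 0.23 in old control against young, and Gzma to -0.28 in both old groups against young. On log2 FPKM, Klrb1c in both old groups against young was -0.007 with a pseudocount of 1 and -0.003 with 0.1, and Cd3g in old Fabp4 shRNA against young was 0.012 with 0.1. With the recovered reads Gzma was 0.23 in old Fabp4 shRNA against young and Klrb1c -0.10 in both old groups against young. The cause of these turns was not tested. For old Fabp4 shRNA against young, 7 of 8 members (median 0.37) and 57 of 69 related genes (median 0.44) were positive without scaling, beside 77.1% of all genes.

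A fit with the animal numbers as a replicate block had 1 residual degree of freedom. It turned Cd4 to -0.34 in old Fabp4 shRNA against old control and to 0.037 in old control against young, Nkg7 to -0.17 and Klrb1c to -0.16 in old Fabp4 shRNA against young, and Gzma to -0.72, Gzmb to -0.15 and Klrb1c to -0.25 in both old groups against young. The median of the members under the block was -0.53, 0.55, -0.17 and -0.14 in the comparisons of old Fabp4 shRNA with old control, old control with young, old Fabp4 shRNA with young and both old groups with young. It called 73, 158, 23 and 79 of all genes in the 4 comparisons, where edgeR without it called 0, 5, 8 and 9 and DESeq2 7, 168, 124 and 218. Same-numbered libraries had correlations of deviations between -0.046 and 0.112, inside the range of -0.361 to 0.35 of the other pairs across groups. With so few same-numbered pairs, these values cannot decide whether equal numbers mark a pair.

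Leaving out each library in turn gave ranges that crossed 0 for part of the tested members and comparisons. In old Fabp4 shRNA against old control these were -0.12 to 1.40 for Cd3g, -0.46 to 0.82 for Cd4, -0.12 to 1.05 for Cd8a, -1.51 to 0.036 for Gzmb and -0.28 to 0.14 for Nkg7. In old control against young they were -1.59 to 0.022 for Cd3g, -1.16 to 0.12 for Cd4, -0.49 to 0.67 for Cd8a, -0.15 to 1.35 for Gzmb and -0.65 to 1.02 for Klrb1c. Against young, old Fabp4 shRNA gave -0.58 to 0.26 for Cd3g, -2.16 to 0.25 for Gzma and -0.58 to 0.10 for Gzmb. In both old groups against young they were -0.89 to 0.14 for Cd3g, -0.90 to 0.30 for Gzma, -0.14 to 0.63 for Gzmb and -0.30 to 1.34 for Klrb1c. The ranges not listed kept their sign, among them those of Ccl5 in every comparison. The stricter filter left 6 members to test, and both old groups against young, which uses all 9 libraries, had no separate fit to the libraries compared. Counts per member and library ran from 0 to 152.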

Other observations

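The FPKM column of the unnumbered young library held 59 recovered reads of the 10 members out of 11805823. These were 16 for Ccl5, 15 for Cd4, 6 each for Nkg7 and Cd8a, 4 each for Gzmb, Cd3g and Klrb1c, 3 for Gzma, 1 for Cd3e and 0 for Gzmk. The count column of the same name held 131 counts of the 10. Per total reads, Klrb1c (0.339 CPM in the recovered reads, 0.124 CPM in the counts) and Cd4 (1.27 CPM and 0.927 CPM) were higher in the recovered reads, and the other 8 members were lower.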
